A study of Homo sapiens with 6 samples.

Results

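The genes described here are those of the NF-kB system: its transcription factor subunits, the proteins that hold them back, the kinases and adaptors that release them, and a set of well known target genes. Of 33 genes named for the set, 30 were measured by 58 probe sets that the platform annotation gives to exactly 1 gene, out of 18338 genes and 41751 probe sets in the table. BCL3 had only probe sets shared with another gene, and TRAF2 and BIRC3 were not analysed here. The arrays, Affymetrix HG-U133 Plus 2.0, compare 2 stable lines of HEK293, a human embryonic kidney line. The tested line carries a vector that expresses myocilin, a secreted glycoprotein of the eye, under a Tet-On system in which doxycycline switches the insert on; the reference line carries the control vector in the same Tet-On background. Both lines were kept in hygromycin B and G418, and the protocol, worded alike for both, gives 0.2 or 1 µg/ml doxycycline for 48 h. The dose behind each array is not given, and only the myocilin samples name doxycycline in their description. Each line is represented by 3 arrays, and nothing says that they were grown as independent cultures, so the p-values reflect array-to-array spread that may be purely technical. Whether each line is 1 clone is not given either, and an effect of myocilin and other differences between the lines cannot be told apart.

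NF-kB is a family of dimeric transcription factors built from 5 subunits, NFKB1, NFKB2, REL, RELA and RELB. In resting cells IkB proteins hold the dimers in the cytoplasm. In the canonical route, receptors for tumour necrosis factor, interleukin 1 or microbial products activate the IkB kinase through TRAF adaptors, and IkB is degraded. In the non-canonical route TRAF3 keeps the kinase NIK, the product of MAP3K14, at a low level. Once NIK accumulates, the NFKB2 precursor is processed and pairs with RELB. Several IkB genes and TNFAIP3 are themselves targets, which closes a negative feedback loop.

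Values are the authors' log2 values, centred per probe set, and give differences, not levels. A value of 0 is not background, levels of different genes cannot be compared, and the identity of the cells could not be checked from marker levels. MYOC, the gene in the vector, read 0.21, 0.20 and 0.24 on the myocilin arrays against -6.71, -8.32 and -8.29 on the control arrays, a gap in the direction of the labels. Correlations over all probe sets were 0.513 to 0.608 among myocilin arrays, 0.409 to 0.464 among control arrays and -0.244 to -0.00516 between the lines. No array stood apart from its line.

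The NF-kB genes that passed the threshold differed by small amounts. At an adjusted p below 0.05 (limma, Benjamini-Hochberg over all genes), 5 of the 30 genes rose in the myocilin line, RELB, NFKBIB, NFKBIE, TNFAIP2 and SOD2, and 1 fell, TRAF3. None of the 6 reached 1.5-fold, and less RNA per cell cannot be told apart from fewer expressing cells. Of all genes tested, 15.6% passed, 8.28% upward and 7.35% downward, beside 20%, 16.7% and 3.33% of the NF-kB genes. With 30 genes, the share that passed in either direction lay near the background. Without adjustment, 16 of the 30 had a p below 0.05, against 5503 of the 18338 genes. Of the 58 probe sets, tested among all probe sets, 5 rose and 1 fell, 10.3% against 11.0% of the whole table (5.46% upward and 5.56% downward). The arrays of the lines did not overlap for 22 of the 58, with myocilin higher for 18 and lower for 4, against 30.4% of all probe sets (15.5% with myocilin higher, 14.8% lower).

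The differences leaned upward. The median over the 30 genes was 0.11 on the log2 scale against 0.02 over all genes, with 21 above 0 and 9 below. Of all 18338 genes, 10141 were above 0 and 8197 below. In size alone the median was 0.18, against 0.10 over all genes. The 3 myocilin arrays lay wholly above the 3 control arrays for 12 genes and wholly below for 3. Such separation was found for 18.9% and 16.0% of all genes, 34.9% in all, and 15 of 30 is 50%. By class, the median difference was 0.17 for the 5 subunits, 0.11 for 8 inhibitors, 0.11 for 7 kinases and adaptors and 0.03 for 10 targets. At the level of arrays, the median over the 30 genes was 0.04, 0.03 and 0.01 on the myocilin arrays and -0.07, -0.03 and -0.07 on the control arrays. All 3 myocilin medians lay above all 3 control medians. Differences of single genes ranged from -0.31 for CCL2 to 0.48 for SOD2.

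**Figure D1:**
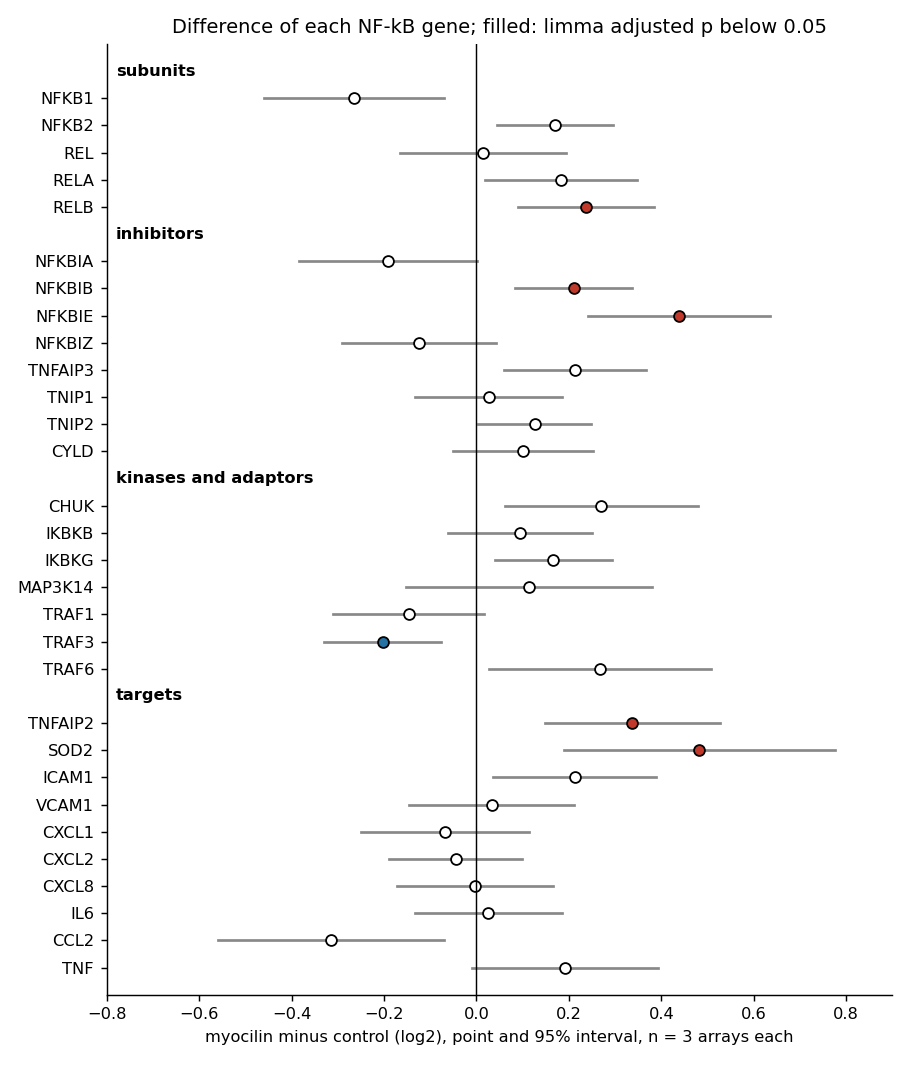
Difference of each NF-kB gene between the lines (x axis, myocilin minus control on the log2 scale), with its 95% interval, grouped by class down the page. Filled points passed the threshold: 5 on the right (RELB, NFKBIB, NFKBIE, TNFAIP2, SOD2) and TRAF3 on the left.

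Among the subunits, RELB was the only 1 of 5 to pass. RELB encodes the partner of processed NFKB2 in the non-canonical dimer. Its single probe set read -0.07, 0.08 and 0.10 on the myocilin arrays against -0.14, -0.26 and -0.20 on the control arrays. The lines did not overlap, and the difference was 0.24 ± 0.07 (log2, SE, limma adjusted p = 0.0393). The same probe set tested among all 41751 probe sets did not pass (adjusted p = 0.0806), so this call lies at the edge of the threshold. It was also lost without control array 1, 2 or 3 and without myocilin array 2 or 3, with differences of 0.21 to 0.26 and adjusted p from 0.0532 to 0.118.

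NFKB2, the precursor that RELB pairs with once processed, read 0.22, 0.20 and 0.22 on the myocilin arrays against -0.02, 0.07 and 0.08 on the control arrays. All myocilin arrays were above all control arrays, yet the difference of 0.17 ± 0.06 (log2, SE) did not pass (adjusted p = 0.0719). Its 3 probe sets did not move alike. Probe set 209636_at rose by 0.32 (adjusted p = 0.0391), 207535_s_at differed by 0.26 (adjusted p = 0.145) and 211524_at by -0.07 (adjusted p = 0.783). NFKB2 lies on chromosome 10, where the 50 nearest measured genes had a median difference of 0.13, and with that median subtracted its difference was 0.04.

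The canonical subunits went different ways without passing. RELA, the main transactivating subunit, read 0.03, -0.05 and 0.02 on the myocilin arrays against -0.10, -0.33 and -0.12 on the control arrays. The lines did not overlap, with control array 2 the lowest, and the difference was 0.18 ± 0.07 (log2, SE, adjusted p = 0.125). NFKB1, the partner of RELA in the classic dimer, read -0.21, -0.26 and -0.04 on the myocilin arrays against 0.06, -0.03 and 0.25 on the control arrays. Here the myocilin arrays were all lower, by a narrow gap, and the difference of -0.26 ± 0.09 did not pass (adjusted p = 0.0699). REL, a subunit used mainly in lymphocytes, read -0.12, 0.09 and 0.05 on the myocilin arrays against 0.08, -0.14 and 0.04 on the control arrays. These values overlapped throughout, and the 95% interval of the difference ran from -0.17 to 0.19.

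NFKBIE, which encodes IkB epsilon, an inhibitor that is itself induced by NF-kB, had the clearest difference of the set. It read 0.38, 0.35 and 0.22 on the myocilin arrays against -0.31, -0.07 and 0.01 on the control arrays. Every myocilin array exceeded every control array, and control array 1 was the lowest. The gene rose by 0.44 ± 0.09 (log2, SE), 1.36-fold (adjusted p = 0.0103), and its single probe set also passed among all probe sets (adjusted p = 0.018). It was the 1 NF-kB gene that passed under all 15 alternatives, at 0.35 to 0.51 and adjusted p from 0.0067 to 0.0447. Alternatives that drop, add or take medians of probe sets could not change its difference, since it has 1 probe set and that ends in _at. Genes around it on chromosome 6 were higher too, with a median of 0.09 over the nearest 50, and 0.35 remained after subtraction.

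NFKBIB, which encodes IkB beta, rose by 0.21 ± 0.06 (log2, SE, adjusted p = 0.0337). The gene mean was 0.07, 0.06 and 0.04 on the myocilin arrays against -0.09, -0.20 and -0.15 on the control arrays, without overlap and with little spread among the myocilin arrays. None of its 3 probe sets passed alone. The pair ending in _x_at, which by design can also bind related sequences, differed by 0.28 and 0.23 (adjusted p = 0.061 and 0.0611), while 228388_at differed by 0.12 (adjusted p = 0.434). Without the _x_at pair the gene therefore did not pass. The call was also lost without control array 2 or 3 and without any 1 of the myocilin arrays, at 0.18 to 0.22 and adjusted p from 0.0663 to 0.107.

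The inhibitors best known as feedback targets did not pass. NFKBIA, which encodes IkB alpha, read -0.40, -0.35 and -0.14 on the myocilin arrays against -0.09, 0 and -0.23 on the control arrays, with overlap, and differed by -0.19 (adjusted p = 0.169). TNFAIP3, a ubiquitin-editing enzyme that shuts the pathway off, read 0.15, 0.15 and 0.03 against -0.21, -0.04 and -0.05 on the control arrays. Its values did not overlap, and its difference of 0.21 fell short of the threshold (adjusted p = 0.0644). The deubiquitinase gene CYLD was measured by 7 probe sets, of which 221903_s_at rose by 0.28 (adjusted p = 0.0356) and 6 did not pass, with differences of -0.08 to 0.32. The CYLD gene mean was 0.12, 0.06 and -0.08 on the myocilin arrays against -0.10, -0.00338 and -0.10 on the control arrays, which overlap, and differed by 0.10 (adjusted p = 0.364). CYLD lies on chromosome 16, whose 777 measured genes had a median difference of 0.14, and its own difference was -0.01 once its neighbours were subtracted. NFKBIZ, a nuclear IkB protein, differed by -0.12, and the TNFAIP3 partners TNIP1 and TNIP2 by 0.03 and 0.13, none past the threshold. BCL3, another nuclear IkB protein, gave 0.15 and 0.33 from the probe sets it shares with MIR8085, neither past the threshold (adjusted p = 0.336 and 0.164).

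**Figure D2:**
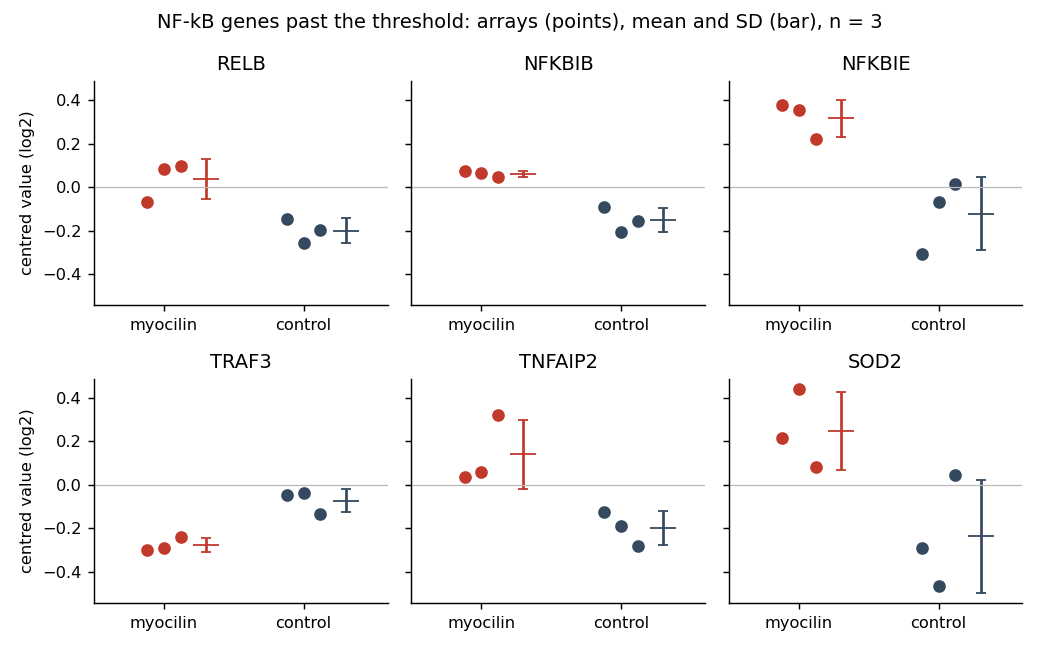
Centred log2 value (y axis) of the 6 NF-kB genes that passed the threshold, per array, with mean and SD beside the points (n = 3 arrays per line). In all 6 panels the myocilin and control arrays do not overlap, and the gap is narrowest for SOD2, where myocilin array 3 at 0.08 lies next to control array 3 at 0.05.

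Of the kinases and adaptors, TRAF3 fell and 0 rose, and 4 of the 7 had an unadjusted p below 0.05, against 5503 of all 18338 genes. TRAF3, the adaptor that targets NIK for degradation, read -0.30, -0.29 and -0.24 on the myocilin arrays against -0.05, -0.04 and -0.13 on the control arrays. The lines did not overlap, and the difference was -0.20 ± 0.06 (log2, SE, adjusted p = 0.0401). The fall came from probe set 221571_at, which read -0.35, -0.38 and -0.45 against -0.18, 0.03 and -0.03 on the control arrays and fell by 0.33 (adjusted p = 0.026). Probe set 208315_x_at overlapped between the lines and differed by -0.07 (adjusted p = 0.702). As a gene mean TRAF3 lost the call without any 1 of the 6 arrays, at -0.23 to -0.19 and adjusted p from 0.0504 to 0.128.

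The IkB kinase itself did not pass. CHUK, its alpha subunit, read 0.27, 0.46 and 0.05 on the myocilin arrays against -0.0017, 0 and -0.02 on the control arrays and differed by 0.27 (adjusted p = 0.0821). IKBKB, the beta subunit, differed by 0.09 (adjusted p = 0.41). IKBKG, the regulatory subunit NEMO, differed by 0.17 without overlap (adjusted p = 0.0784); a near-identical pseudogene lies beside it, and its probe sets cannot separate the copies. MAP3K14, the gene of NIK, read 0.14, -0.31 and -0.04 on the myocilin arrays against -0.33, 0 and -0.22 on the control arrays. It varied more among arrays of a line than between lines, with a 95% interval of -0.15 to 0.38 for the difference. TRAF6, the adaptor of interleukin 1 and Toll-like receptors, differed by 0.27 (adjusted p = 0.126), and TRAF1, an NF-kB-induced adaptor, by -0.15 (adjusted p = 0.212).

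Among the 10 target genes, SOD2 and TNFAIP2 rose. SOD2, the mitochondrial superoxide dismutase, read 0.22, 0.44 and 0.08 on the myocilin arrays against -0.29, -0.46 and 0.05 on the control arrays. The gap between the lines was narrow and the spread wide, and the rise was 0.48 ± 0.13 (log2, SE), 1.40-fold (adjusted p = 0.0355). This value rests on 1 probe set, 1566342_at, since 4 others are shared with the overlapping transcript SOD2-OT1. Of those 4, 215223_s_at rose by 0.47 (adjusted p = 0.0075) and the others differed by 0.11 to 0.24 without passing. Averaged over all 5, an alternative chosen after seeing the data, SOD2 rose by 0.29 ± 0.07 (adjusted p = 0.0239). SOD2 lies on chromosome 6, where its 50 nearest genes had a median difference of 0.13. With that subtracted it differed by 0.36 and did not pass (adjusted p = 0.128). The call was also lost without control array 1 or 2 and without myocilin array 1 or 2, at 0.37 to 0.50 and adjusted p from 0.0842 to 0.112.

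TNFAIP2, a cytosolic protein induced by tumour necrosis factor, read 0.04, 0.06 and 0.32 on the myocilin arrays against -0.12, -0.19 and -0.28 on the control arrays. The lines did not overlap, with myocilin array 3 the highest, and the gene rose by 0.34 ± 0.08 (log2, SE, adjusted p = 0.0263). Probe set 202510_s_at rose by 0.44 (adjusted p = 0.0281), and 202509_s_at differed by 0.24 (adjusted p = 0.209). Without control array 2 or 3 or myocilin array 3 the gene no longer passed, at 0.25 to 0.34 and adjusted p from 0.0574 to 0.0854. TNFAIP2 and TRAF3 lie close together on chromosome 14 with 2 measured genes between them, and their differences had opposite signs. Their 50 nearest genes had median differences of 0.01 for each.

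The secreted inflammatory targets did not pass the threshold. The chemokine genes CXCL8, CXCL1 and CXCL2, neighbours on chromosome 4, differed by -0.003, -0.07 and -0.04, with adjusted p of 0.986, 0.628 and 0.695. For CXCL8 the values were -0.07, -0.12 and -0.07 on the myocilin arrays against -0.13, 0.08 and -0.20 on the control arrays, and the 95% interval of the difference was -0.17 to 0.17. IL6, the gene of interleukin 6, differed by 0.03 with an interval of -0.13 to 0.19, and TNF by 0.19 with an interval of -0.01 to 0.39. CCL2, a monocyte chemoattractant, read -0.12, 0.05 and -0.34 on the myocilin arrays against 0.31, 0 and 0.22 on the control arrays. Its difference of -0.31 was the lowest of the set and did not pass (adjusted p = 0.0834). It passed without myocilin array 2, the 1 myocilin array that overlapped the control arrays. The adhesion gene ICAM1 differed by 0.21 (adjusted p = 0.1), from 0.05 to 0.35 over its 3 probe sets, and VCAM1 by 0.03 (adjusted p = 0.827). CXCL1 and CXCL2 are close paralogs whose probe sets can share signal. Since brightness was removed from the values, a gene that both lines leave silent cannot be told from 1 that both express alike.

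**Figure D3:**
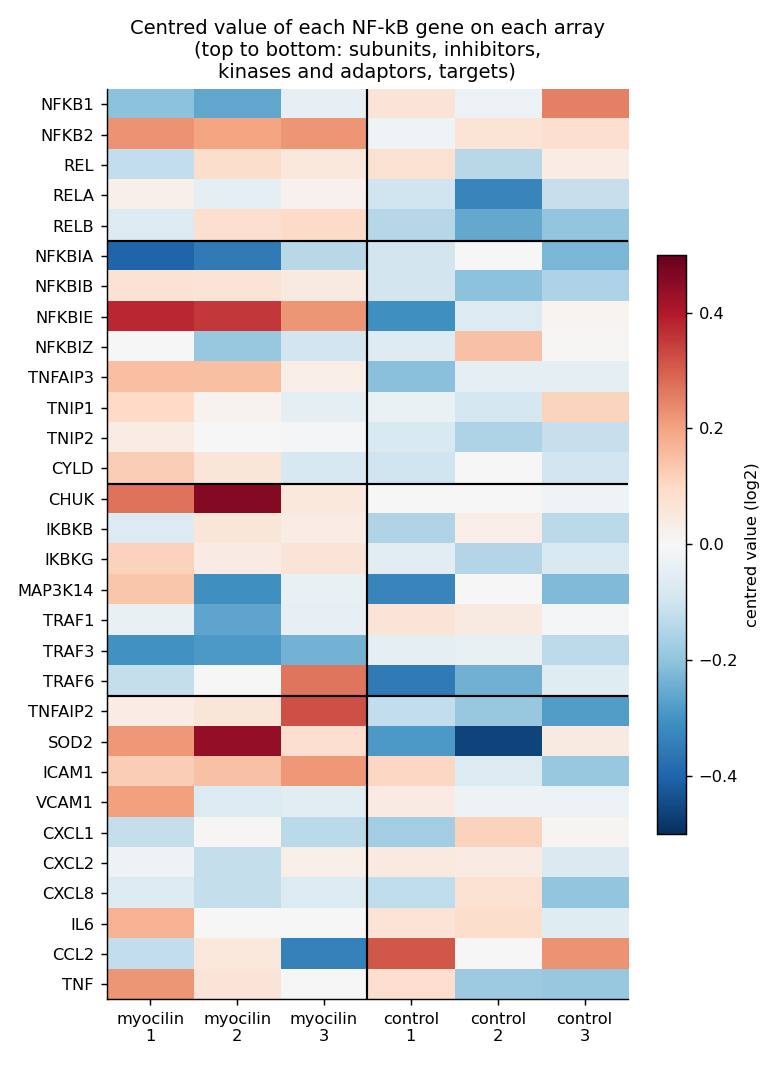
Centred log2 value (colour, from -0.5 in blue to 0.5 in red) of the 30 NF-kB genes on each array, with the 3 myocilin arrays left of the line and the 3 control arrays right of it. NFKBIE is red on all myocilin arrays and TRAF3 blue, while CXCL8, IL6 and REL show no split between the lines.

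The promoters of the genes were searched for NF-kB-type motifs, since the neighbours TNFAIP2 and TRAF3 moved in opposite directions. RefSeq promoter windows of 300 bases (250 before to 50 after a start site, GRCh38.p14) were held for 29 of the 33 genes, in 46 windows. The sequences shown are those of the neighbours TNFAIP2 and TRAF3, of NFKBIB and NFKB2, and of NFKBIA and CXCL8, textbook NF-kB targets that did not pass. Each is written 5′ to 3′ along the gene, and capitals mark matches to GGNNTTTCC on either strand. Where a gene has several windows, the first with a match is shown.

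TNFAIP2 (chr14:103123211-103123510, + strand): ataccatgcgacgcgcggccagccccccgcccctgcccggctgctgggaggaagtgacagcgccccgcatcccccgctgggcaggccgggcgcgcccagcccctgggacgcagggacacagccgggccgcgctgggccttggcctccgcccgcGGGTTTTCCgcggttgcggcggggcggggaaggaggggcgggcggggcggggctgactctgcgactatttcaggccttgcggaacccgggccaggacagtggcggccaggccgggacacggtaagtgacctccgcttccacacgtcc
TRAF3 (chr14:102777199-102777498, + strand): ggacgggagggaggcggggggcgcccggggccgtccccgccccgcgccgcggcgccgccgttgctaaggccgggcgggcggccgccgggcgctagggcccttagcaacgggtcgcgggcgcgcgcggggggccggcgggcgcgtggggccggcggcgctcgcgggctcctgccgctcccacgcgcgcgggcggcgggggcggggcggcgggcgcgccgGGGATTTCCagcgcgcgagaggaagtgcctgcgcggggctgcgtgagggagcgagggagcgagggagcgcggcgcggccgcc
NFKBIB (chr19:38899719-38900018, + strand): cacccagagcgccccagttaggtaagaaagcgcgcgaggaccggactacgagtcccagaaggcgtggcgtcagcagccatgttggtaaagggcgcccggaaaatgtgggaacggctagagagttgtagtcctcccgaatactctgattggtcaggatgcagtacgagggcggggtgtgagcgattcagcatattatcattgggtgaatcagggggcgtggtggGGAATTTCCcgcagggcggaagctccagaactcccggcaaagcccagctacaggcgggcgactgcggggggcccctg
NFKB2 (chr10:102394328-102394627, + strand): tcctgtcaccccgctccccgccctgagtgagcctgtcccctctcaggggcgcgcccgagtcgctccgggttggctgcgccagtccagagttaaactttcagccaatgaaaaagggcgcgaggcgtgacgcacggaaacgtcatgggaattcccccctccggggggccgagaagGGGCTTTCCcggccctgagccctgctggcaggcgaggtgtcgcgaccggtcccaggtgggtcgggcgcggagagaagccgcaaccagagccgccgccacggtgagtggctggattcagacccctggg
NFKBIA (chr14:35404700-35404999, - strand): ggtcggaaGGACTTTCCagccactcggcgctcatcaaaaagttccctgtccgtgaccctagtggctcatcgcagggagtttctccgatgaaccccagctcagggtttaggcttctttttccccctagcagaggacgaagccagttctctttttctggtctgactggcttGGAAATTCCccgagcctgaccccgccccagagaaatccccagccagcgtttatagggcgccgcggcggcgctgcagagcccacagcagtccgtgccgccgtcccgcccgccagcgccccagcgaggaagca
CXCL8 (chr4:73740319-73740618, + strand): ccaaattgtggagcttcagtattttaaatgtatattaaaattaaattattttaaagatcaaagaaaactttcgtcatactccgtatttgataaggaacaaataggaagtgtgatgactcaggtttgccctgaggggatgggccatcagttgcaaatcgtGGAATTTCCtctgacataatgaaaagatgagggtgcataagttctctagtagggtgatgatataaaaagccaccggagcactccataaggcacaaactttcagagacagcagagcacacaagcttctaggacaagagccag

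The window of TNFAIP2, which rose, holds GGGTTTTCC starting 97 bases before the start site, and that of TRAF3, which fell, GGGATTTCC starting 32 bases before it. NFKBIB and CXCL8 hold the same 9 bases, GGAATTTCC, starting 27 and 91 bases before their start sites, and their differences were 0.21 and -0.003. NFKBIA has a pair of matches, 1 of them on the opposite strand. GGNNTTTCC was found in 22 of the 46 windows, against 6.26% of the 35116 windows of that length in the RefSeq table. By gene, 20 of the 29 held it in at least 1 window, and the share over all genes was not computed. The looser GGGNNNNNCC, on either strand and free to overlap the first, was found in 46 of the 46 windows and in 58.7% of all windows. The median GC content was 67.8% in the 46 windows and 58.7% in all windows, and its part in these shares was not tested. Among measured genes with a window, 3 of the 4 that passed the threshold and 15 of the 22 that did not held GGNNTTTCC. NFKBIE and RELB, which also passed, had no window and could not be searched. SOD2 was the gene past the threshold whose 4 windows held no match. These matches describe letters in the windows only.

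**Figure D4:**
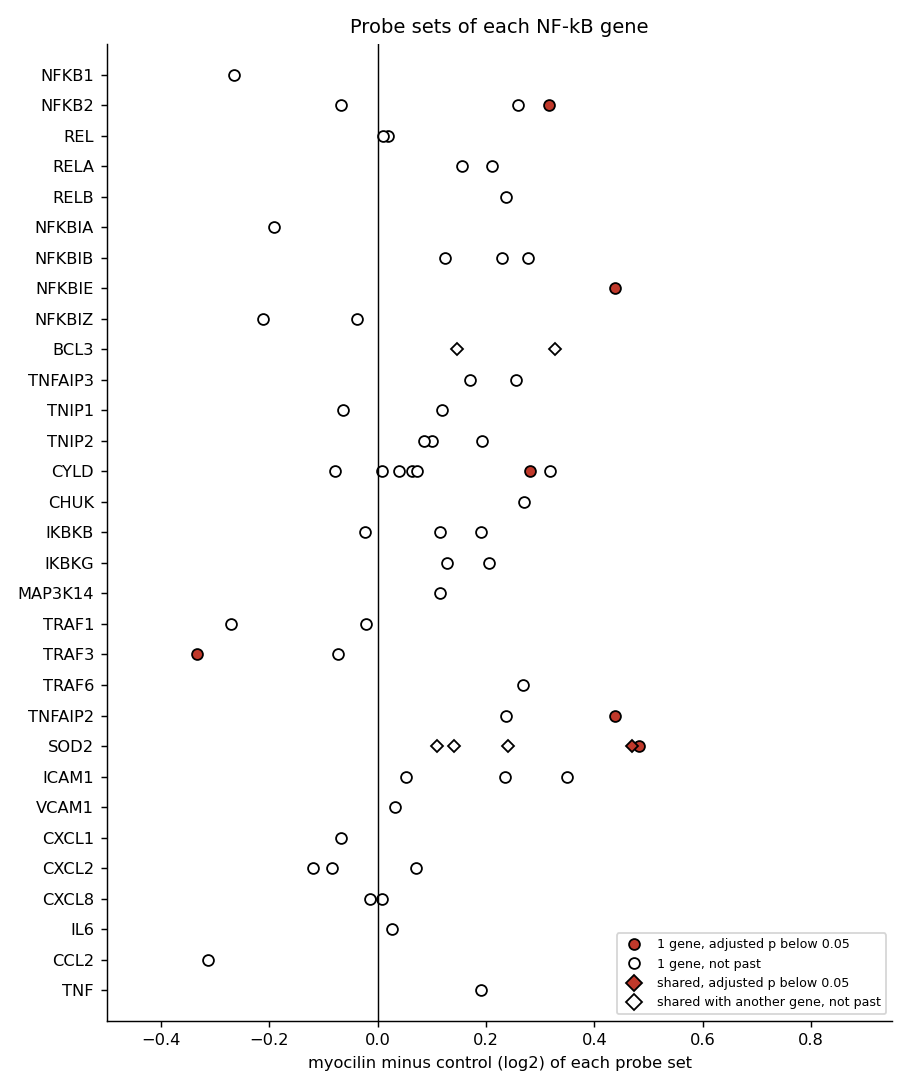
Difference (x axis, myocilin minus control on the log2 scale) of each probe set of each NF-kB gene, with circles for probe sets of 1 gene and diamonds for those shared with another gene; filled symbols passed the threshold. NFKB2, TRAF3, TNFAIP2 and CYLD each had 1 probe set past the threshold and others that were not.

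Of the 30 genes, 17 had more than 1 probe set. For 11 of these all probe sets had 1 sign, and for 6 they went both ways. The probe sets of a gene lay at most 0.40 apart, in CYLD.

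Other genes of the pathway, listed apart from the 33, showed a similar share of calls. Of 95 listed, 86 were measured, and 8 rose and 3 fell (12.8%, against 15.6% of all genes), with a median difference of 0.03. In size alone the median was 0.08, against 0.10 over all genes and 0.18 over the 30. The lines did not overlap for 34.9% of the 86 and for 34.9% of all genes, against 50% of the 30. Of 14 receptors 1 rose and 1 fell. TNFRSF12A, the receptor for the cytokine TWEAK, which feeds the non-canonical route, read 0.23, 0.33 and 0.39 on the myocilin arrays against -0.53, -0.43 and -0.47 on the control arrays. It rose by 0.79 ± 0.06 (log2, SE), 1.73-fold (adjusted p = 0.000109), more than any of the 30 genes. TNFRSF11A, the receptor RANK of osteoclast precursors, read -0.25, -0.18 and -0.30 against 0.18, 0.35 and 0.20 on the control arrays and fell by 0.49 ± 0.07 (adjusted p = 0.00161). The remaining 12 of 14 receptors did not pass, among them the tumour necrosis factor receptor TNFRSF1A at -0.18 (adjusted p = 0.0699), named here after its value was seen. None of the 7 measured ligands passed in limma, and 0 had an unadjusted p below 0.05.

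Upstream, 2 of 16 adaptors and kinases rose and 1 fell, 18.8% against 15.6% of all genes. The share was 15.4% in the ubiquitin machinery and 11.1% among nuclear partners and further IkB proteins, so these classes lay near the background. TICAM1, the adaptor of the RNA-sensing Toll-like receptor TLR3, rose by 0.46 ± 0.08 (log2, SE, adjusted p = 0.00463). TAB2, a ubiquitin-binding partner of the kinase MAP3K7, rose by 0.26 (adjusted p = 0.0281), and AZI2, an adaptor of the kinase TBK1, fell by 0.26 (adjusted p = 0.038). In the ubiquitin machinery 2 of 13 rose: OTULIN, which removes linear ubiquitin chains, by 0.20 (adjusted p = 0.0398) and BTRC, which marks IkB for degradation, by 0.19 (adjusted p = 0.0404). BTRC lies on chromosome 10 and differed by 0.07 once its neighbours were subtracted (adjusted p = 0.47). The same subtraction ended the calls of TAB2 at 0.19 (adjusted p = 0.0827), AZI2 at -0.25 (adjusted p = 0.055) and OTULIN at 0.14 (adjusted p = 0.144). COMMD1, which promotes the breakdown of RELA, fell by 0.42 ± 0.09 (adjusted p = 0.0169), the 1 call among 9 nuclear partners and further IkB proteins. TAB2, AZI2, OTULIN, BTRC and COMMD1 each lost the call without at least 1 array, while TICAM1, TNFRSF12A and TNFRSF11A did not. With neighbours subtracted, TNFRSF12A on chromosome 16 differed by 0.70 and TNFRSF11A on chromosome 18 by -0.39. TICAM1 on chromosome 19 then differed by 0.46, and all 3 still passed.

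Of 27 further targets 3 rose and 0 fell, against 8.28% and 7.35% of all genes, and 10 had an unadjusted p below 0.05, against 5503 of 18338. GADD45B, a stress-induced gene that NF-kB and other pathways switch on, read 0.05, 0.12 and 0.14 on the myocilin arrays against -0.34, -0.51 and -0.39 on the control arrays. It rose by 0.52 ± 0.06 (log2, SE, adjusted p = 0.00115), but by 0.16 once its _x_at and _s_at probe sets were left out (adjusted p = 0.255). IER3, an early response gene that is also a target of ERK signalling, rose by 0.42 ± 0.08 (adjusted p = 0.00763). IER3 lies on chromosome 6 and rose by 0.29 with its neighbours subtracted (limma adjusted p = 0.0366). LCN2, a secreted iron-binding protein, rose by 0.30 ± 0.09 (adjusted p = 0.0426), a call lost without myocilin array 1 or 3 or control array 2 or 3, at 0.24 to 0.32, and with its neighbours subtracted, at 0.24 (adjusted p = 0.075).

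**Figure D5:**
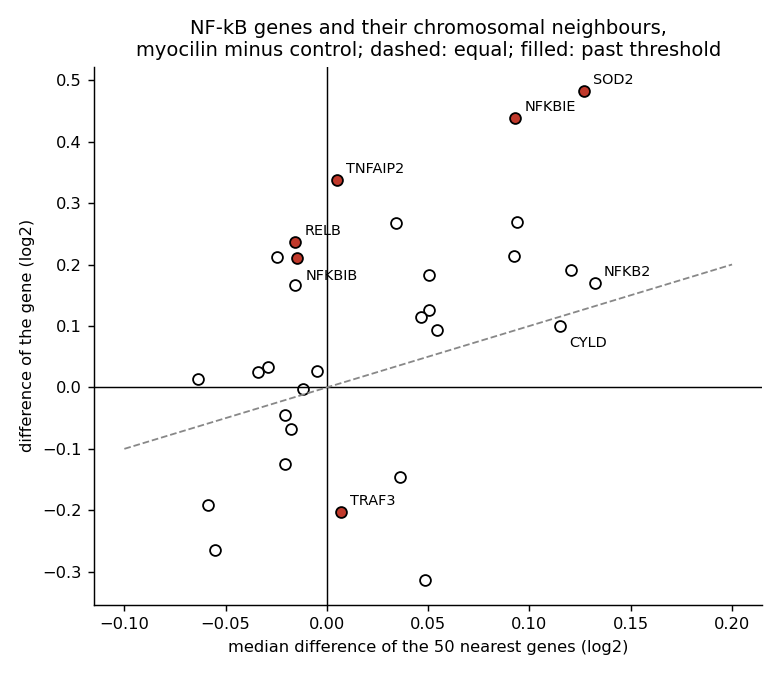
Difference of each NF-kB gene (y axis) against the median difference of its 50 nearest measured genes on the chromosome (x axis), both myocilin minus control on the log2 scale; filled points passed the threshold. SOD2, NFKBIE, NFKB2 and CYLD lie among neighbours that were higher by 0.09 to 0.13, while RELB, NFKBIB, TNFAIP2 and TRAF3 lie among neighbours near 0.

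Genes of chromosomes 6, 10 and 16 were higher as a group in the myocilin line, with medians of 0.09, 0.11 and 0.14, and 7 of the 30 NF-kB genes lie there. With each gene set against its 50 nearest neighbours, 5 of the 6 calls held and SOD2 was lost. An unadjusted limma p below 0.05 was then found for 11 of the 30 genes, against 16 before. Over all genes that count was 4930 of 18259 with neighbours subtracted, against 5503 of 18338 before. Markers of other cell types were also compared. Of 6 leukocyte markers 0 passed in limma and 1, CD14 at 0.19, had an unadjusted p below 0.05. CD14 was also the 1 marker of the 6 that was higher without overlap, against 18.9% of all genes. Of the 6, 5 were above 0 and PTPRC was below, at -0.07. Their summed centred value was 0.33 to 0.73 on the myocilin arrays and -0.14 to 0.18 on the control arrays. Of 5 endothelial markers 0 passed, with 0 at an unadjusted p below 0.05 and sums of -0.04 to 0.45 and -0.12 to 0.33. Of 5 fibroblast markers COL1A1 rose by 0.25 and 4 did not pass. In all, 2 of the 5 were above 0 and 3 below, the latter DCN, LUM and PDGFRA at -0.04, -0.17 and -0.02. The sums were -0.25 to 0.13 on the myocilin arrays and -0.34 to -0.10 on the control arrays. The table cannot show which of these are at background, and their part in the NF-kB results was not tested. Of 6 genes listed for the HEK293 lineage (LHX1, NEFL, NEFM, PAX2, KRT18 and VIM), NEFM rose by 1.42 (limma adjusted p = 3.77e-06) and 5 did not pass. NEFL at -0.05 and PAX2 at -0.03 lay below 0, with overlap between the lines. Of the 6, 4 were higher without overlap, against 18.9% of all genes. An unadjusted p below 0.05 was found for 4, against 5503 of 18338. The sums were 1.51 to 1.55 on the myocilin arrays and -0.96 to -0.05 on the control arrays. Much of that gap was NEFM, at 1.18, 1.19 and 1.17 against -0.27, -0.30 and -0.15. The part of these 6 genes in the NF-kB results was not tested either.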

How the data were processed

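RNA was extracted with Trizol and hybridised to HG-U133 Plus 2.0 arrays, per the labels. The authors deposited positive and negative log2 values. The log base was inferred, and how the arrays were background-corrected, summarised and normalised is not stated in the labels read here. Each array's median is 0, and an exact 0 occurs on some array in 57.3% of the 41751 probe sets. The median over the 6 arrays is 0 for 4.86% of probe sets, so for most it was not the reference of the centring. What the reference was is not known. No detection call, background correction or filter on dim probes was possible. The platform annotation gave 37460 probe sets 1 gene and 1728 several, with 2563 unlisted; 37416 matched RefSeq (GRCh38.p14) for symbols and positions. A gene's value is the mean of its probe sets.

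Lines were compared with limma 3.58.1 (lmFit, eBayes, two-sided) in R 4.3.3 per gene and per probe set, adjusted by Benjamini-Hochberg, threshold 0.05. Differences are myocilin minus control, and intervals are 95%. Members and lists were chosen with earlier results of these data known. Values per array are given for the members that passed as a gene or a probe set and for the subunits, and of the other pathway list for up to 4 genes per class; others were chosen after their values were seen. The fit was tested on simulated data with far fewer changed genes than passed here, which makes the adjustment stricter. An added change of 0.3 was recovered for 35.8% of genes and 4.48% of probe sets, and 0.5 for 86.6% and 40.3%. A gene or probe set that did not pass may therefore still differ. Precision is limited by the 3 arrays per line. Alternatives were quantile and median normalisation, robust or trended eBayes, array weights, medians of probe sets, no _x_at or _s_at probe sets, neighbours subtracted (25 genes on each side) and each array left out.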

Additional observations from a re-analysis of the deposited data

Results flagged for a closer look

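Probe set 215223_s_at, which the annotation gives to both SOD2 and SOD2-OT1 and which therefore lay outside the comparison, read 0.46, 0.54 and 0.62 on the myocilin arrays against 0.17, -0.06 and 0.10 on the control arrays. Its difference was 0.47 ± 0.08 (log2, SE, limma adjusted p = 0.0075), and all myocilin arrays lay above all control arrays. The other shared probe sets of SOD2 differed by 0.11, 0.24 and 0.14 and did not pass.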

How the results depend on the processing

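No paired analysis was possible because the labels give the lines no shared replicate numbers. Background correction, a filter on dim probes and a slide or scan block were not run, since the values are centred and no slide is given. The 6 genes past the threshold kept their sign under every alternative run, and NFKBIE alone passed under all of them. The alternatives among probe sets left the difference of NFKBIE unchanged by design. The count of 6 was 3 after dropping _x_at and _s_at probe sets, where 18 of the genes were left and TNFAIP2 had no probe set, and 1 to 4 with an array left out; array weights gave 8, adding NFKB1, TNFAIP3 and CHUK and losing RELB. The count of 6 probe sets was 0 to 4 with an array left out, the 0 being without myocilin array 1 (limma, 21 at an unadjusted p below 0.05). Other pathway genes past the threshold numbered 11, 6 without _x_at and _s_at probe sets, and 5 to 8 with an array left out. With an array left out, CCL2, CHUK and ICAM1 each passed once. All genes past the threshold numbered 2866, 1878 without _x_at and _s_at probe sets and 1613 to 2220 with an array left out; under quantile normalisation 1331 genes rose and 1476 fell, against 1519 and 1347; all probe sets numbered 4603, 2695 and 2281 to 3283. REL, at 0.01, read -0.0227 with array weights, -0.0037 under quantile normalisation and -0.0520 to 0.0787 with an array left out, and CYLD -0.0147 with neighbours subtracted; neither passed anywhere. Fits with an array left out have fewer arrays, and beyond that the cause of these changes was not tested.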
